A study of Mus musculus with 8 samples.

Results

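The genes described here are 9 that carry the mitochondrial route of programmed cell death and are known for its use in spermatocytes: Bax, Bak1, Bcl2, Bcl2l1, Bcl2l11, Bbc3, Pmaip1, Casp9 and Trp53. They were chosen by name for that role, with earlier results of these data known, and all 9 were found among the 23235 gene symbols of the deposited files. The study deleted Cnot4, which encodes a ubiquitin ligase of the CCR4-NOT complex, in male germ cells and profiled messenger RNA in spermatocytes early and late in meiotic prophase. Males of the C57BL/6 strain, WT or Cnot4 fl/fl;Stra8-Cre and 6 weeks old by the methods, gave spermatocytes sorted by flow cytometry at the leptotene to zygotene stage (LZ) and at the pachytene to diplotene stage (PD), with 2 libraries in each of the 4 groups. The mutant groups are called Cnot4-null. Stra8-Cre acts in male germ cells and removes exon 2 of the floxed gene. The labels name Trizol extraction and a TruSeq kit for total RNA, whereas the methods name Smart-Seq2 on sorted cells, and the files do not settle which was used. Values are FPKM, fragments scaled by transcript length and library size, so levels of different genes can be compared per length.

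Cnot4 itself had 36.0 and 34.9 FPKM in WT at LZ, while Cnot4-null LZ had 43.2 and 34.6 FPKM. For the PD libraries the values were 76.6 and 73.1 FPKM (WT), and 65.9 and 53.5 FPKM (Cnot4-null). The gene was therefore read in every library of the mutant groups. A value per gene cannot show the loss of 1 exon, so the genotype was not tested by it.

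Apoptosis through the mitochondria is decided among proteins of the BCL2 family. Survival members such as BCL2 and BCL-XL hold the effectors BAX and BAK in check, and BH3-only members such as BIM, PUMA and NOXA release or activate the effectors, so that the outer mitochondrial membrane opens, cytochrome c leaves and the initiator caspase-9 is switched on. In the testis this route removes surplus germ cells and spermatocytes that fail in meiotic prophase, and p53, a transcription factor that answers DNA damage, is among its triggers.

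The promoters of Bax and Trp53 are shown because both transcripts, in FPKM as deposited, were high at LZ, low at PD in WT and intermediate at PD in Cnot4-null. For Trp53 the difference between genotypes at PD depended on the scale between libraries, as given further on. Both come from RefSeq on the build GRCm38.p6, from 250 bases before to 50 bases after the annotated start, each 300 bases long and written 5′ to 3′ along the gene's own strand. The Bax window is chr7:45466849-45467148 on the minus strand, and the Trp53 window is chr11:69580109-69580408 on the plus strand. Capitals mark the E-box CACGTG, which reads alike on both strands, and the GC box GGGCGG or its complement CCGCCC.
Bax: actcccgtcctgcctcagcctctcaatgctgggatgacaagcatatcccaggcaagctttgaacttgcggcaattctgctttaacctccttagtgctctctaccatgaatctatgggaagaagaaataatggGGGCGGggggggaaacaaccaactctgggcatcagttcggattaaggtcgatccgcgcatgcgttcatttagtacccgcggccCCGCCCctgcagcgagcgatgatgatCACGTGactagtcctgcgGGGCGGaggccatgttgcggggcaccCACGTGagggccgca
Trp53: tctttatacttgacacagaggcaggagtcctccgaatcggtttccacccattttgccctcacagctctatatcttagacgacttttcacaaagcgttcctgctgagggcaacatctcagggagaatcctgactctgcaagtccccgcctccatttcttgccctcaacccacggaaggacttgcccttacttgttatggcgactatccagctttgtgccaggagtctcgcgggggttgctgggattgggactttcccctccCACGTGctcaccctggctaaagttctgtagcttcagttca

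The Bax window held 2 E-boxes and 3 GC boxes, and the Trp53 window held 1 E-box and no GC box. Of all 32851 promoter windows in the table, 7.15% held the E-box and 35.7% the GC box on either strand. Among the 9 genes, 8 had 1 to 3 windows each, and in 3 genes a window held the E-box and in 5 the GC box, a count per gene that cannot be set against a share per window. The p53 consensus decamer RRRCWWGYYY (R for A or G, W for A or T, Y for C or T), searched on both strands, was found in the windows of 2 genes, Bax and Trp53, and in 8.36% of all windows. On either strand, CCAAT or its complement ATTGG occurred in a window of 3 of the genes and in 37.4% of all windows. TATAAA or its complement TTTATA occurred in a window of 1, Trp53, where it is the complement that is printed, and in 13.6% of all windows. For these 3 motifs, too, the count per gene cannot be set against the share per window. A match describes the letters only, and no binding was measured.

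The Cnot4-null PD libraries stood apart from those of WT PD in the markers of other cell types, and from all other libraries for Leydig cells, spermatids and peritubular and endothelial cells. These values precede the results because every comparison at PD rests on them. Markers of Leydig cells, the steroid-producing cells between the tubules, summed to 10073 and 22274 FPKM in Cnot4-null PD against 116 and 7.07 FPKM in WT PD, and all 6 of 6 rose by the test described further on. Insl3, the most abundant of them, reached 9669 and 21608 FPKM there. In the LZ libraries the Leydig sum lay between 9.89 and 19.0 FPKM, and 3 of its 6 genes were listed at 0 in WT LZ replicate 2, Cnot4-null LZ replicate 1 and WT PD replicate 2. Markers of spermatids, led by Prm1, summed to 15665 and 7045 FPKM in Cnot4-null PD against 397 and 248 FPKM in WT PD, and 5 of 5 rose. Markers of spermatogonia, led by Uchl1, summed to 235 and 299 FPKM against 16.3 and 11.3 FPKM, and 5 of 5 rose. At LZ the spermatid sum lay between 701 and 4025 FPKM and the spermatogonia sum between 294 and 470 FPKM, so that only the former was lower at LZ than in both Cnot4-null PD libraries.

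Markers of macrophages, led by Lyz2, summed to 24.3 and 108 FPKM in Cnot4-null PD against 2.75 and 1.60 FPKM in WT PD, with 3 of 6 called, and reached 35.7 FPKM in WT LZ replicate 1. Markers of peritubular and endothelial cells, led by Acta2, summed to 46.5 and 228 FPKM against 1.25 and 1.08 FPKM, with 3 of 3 tested called. Markers of Sertoli cells, led by Cldn11, summed to 5.31 and 9.37 FPKM against 0.767 and 1.23 FPKM, with 2 of 4 tested called, and to 9.82 and 11.5 FPKM in WT LZ against 2.06 and 3.20 FPKM in Cnot4-null LZ, where all 4 tested were lower in both libraries than in either of WT LZ, none of them called, while Amh was listed at 0 in 7 of the 8 libraries. The blood genes Hba-a1 and Hbb-b1 were listed at 0 in all 8 libraries. Markers of the sorted stage itself, pachytene and diplotene spermatocytes, led by Ldhc, summed to 5444 and 1881 FPKM in Cnot4-null PD against 11834 and 10973 FPKM in WT PD, with 1 of 6 called lower, Hspa2 (-1.06, adjusted p = 0.0490, range 0.00116 to 0.252), under 4 of 17 alternatives, while 1 other was lower after quantile normalization and all 6 after rescaling. Markers of leptotene and zygotene spermatocytes, led by Sycp3, summed to 827 and 493 FPKM against 997 and 1036 FPKM at PD, with 3 of 6 called higher and 2 lower, and to between 1232 and 2835 FPKM at LZ. The marker counts at PD depended on the scale: after quantile normalization and after rescaling, those higher were 6 and 6 for Leydig cells, 5 and 5 for spermatids, 3 and 4 for spermatogonia, 0 and 3 for macrophages, 2 and 3 for peritubular and endothelial cells, 0 and 1 for Sertoli cells and 2 and 2 for leptotene and zygotene spermatocytes, of which 2 and 3 were lower. Of the called markers, Myh11, Cdh5, Gata4, Csf1r, Hsd3b1 and Hsd3b6 passed the filter through Cnot4-null PD libraries alone, the group in which they were high, so their calls count for less. At LZ limma called none of the tested markers between genotypes, with 1 spermatid and 2 Sertoli markers at an unadjusted p under 0.05. Their part in the results on the apoptosis genes was not tested, and in bulk samples fewer cells of a type and less RNA per cell cannot be told apart.

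**Figure D1:**
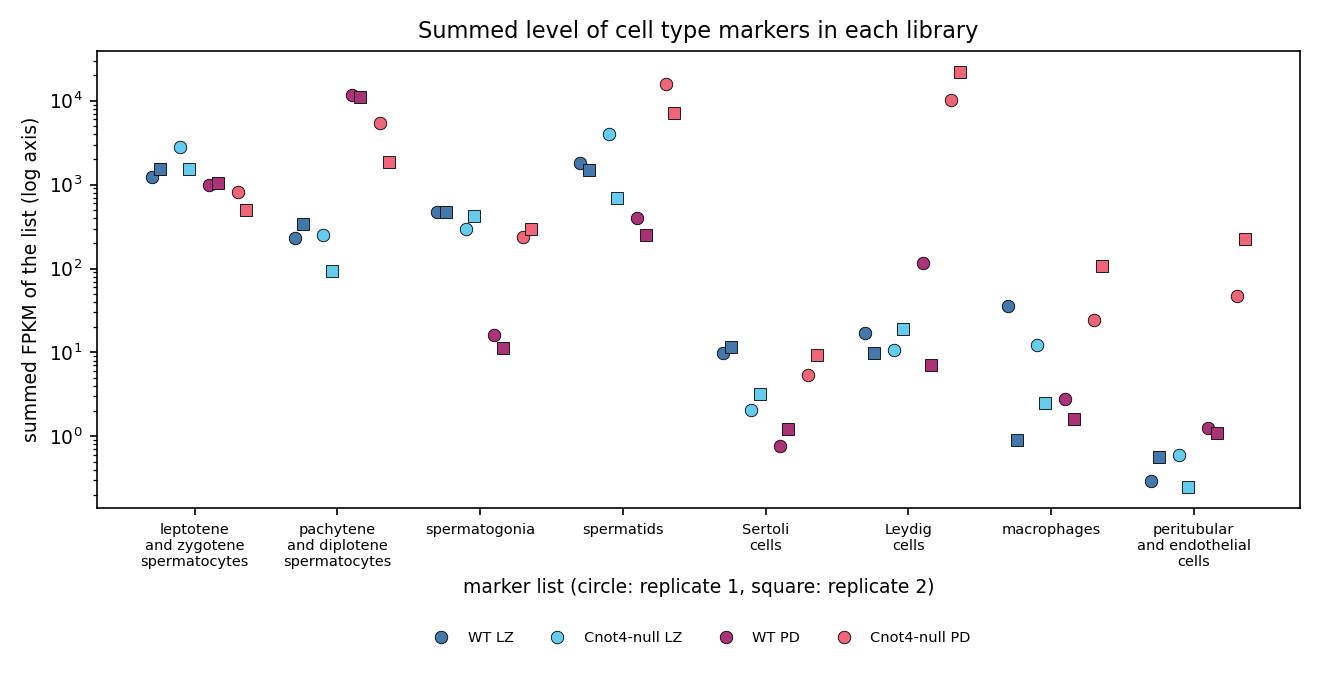
Summed FPKM of 8 lists of cell type markers (vertical axis, logarithmic) in each of the 8 libraries, coloured by group, with circles for replicate 1 and squares for replicate 2. The Cnot4-null PD libraries lie highest for Leydig cells, at 10073 and 22274 FPKM, and below both WT PD libraries for pachytene and diplotene spermatocytes.

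Comparisons used limma, which fits each gene across all 8 libraries on the log2(FPKM + 1) scale, and a gene was called when its p, adjusted over 15899 tested genes, was under 0.05. All 9 genes passed the filter of FPKM above 1 in at least 1 library. Such p-values measure only the spread between these samples, and an exact test of 2 libraries against 2 cannot go below p = 0.333. Adding 1 to FPKM understates changes of genes with low values. At PD the whole distribution also moved, since the median log2 change of all tested genes between Cnot4-null and WT was 0.66. Changes at PD are therefore also given relative to that median, and with the libraries put on a common scale by quantile normalization or by rescaling to the same median.

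Between Cnot4-null and WT at PD, 3 of the 9 genes were called, Bax, Bcl2l11 and Trp53, all higher, while over all tested genes 53.1% were called, 41.6% higher and 11.5% lower. A share of 3 in 9 does not exceed that background, so the count says nothing particular about the apoptosis genes, and the results lie in the individual genes and their sizes of change. After quantile normalization 1 of the 9, Bax, was higher and 2, Bak1 and Casp9, were lower, beside 17.8% of all genes higher and 25.6% lower. After rescaling to the same median 2 were higher, Bax and Bcl2l11, and 1, Bcl2l1, was lower, beside 23.3% of all genes higher and 40.1% lower. Both Cnot4-null PD libraries lay above both WT PD libraries for 7 of the 9 and below them for 1, Bcl2l1, as was the case for 9250 and 3676 of the 15899 tested genes. The median log2 change of the 9 was 0.92, which is the fitted value of Bbc3, a gene listed at 0 in WT PD. Without Bbc3 it was 0.67, beside 0.62 for all tested genes that had no group at 0. The median of the 9 was 0.18 after quantile normalization and -0.05 after rescaling, beside -0.10 and -0.21 for all tested genes.

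At LZ, none of the 9 was called between genotypes by limma, and 0.0943% of all tested genes were. At an unadjusted p under 0.05 there were 2 of the 9, Bcl2l11 and Pmaip1, and 1013 of all 15899. From LZ to PD in WT, 5 of the 9 were called, 3 lower at PD (Bax, Bcl2l11, Trp53) and 2 higher (Bak1, Bcl2l1), beside 57.8% of all genes, 36.2% lower and 21.6% higher. From LZ to PD in Cnot4-null, 3 of the 9 were called, Bak1, Bcl2l11 and Pmaip1, beside 46.0% of all genes. The difference of the genotype effect between PD and LZ was called for 2 of the 9, Bax and Trp53, beside 30.0% of all genes. In each of these comparisons the share among the 9 was near or below that among all genes, apart from LZ, where both were at or close to 0.

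**Figure D2:**
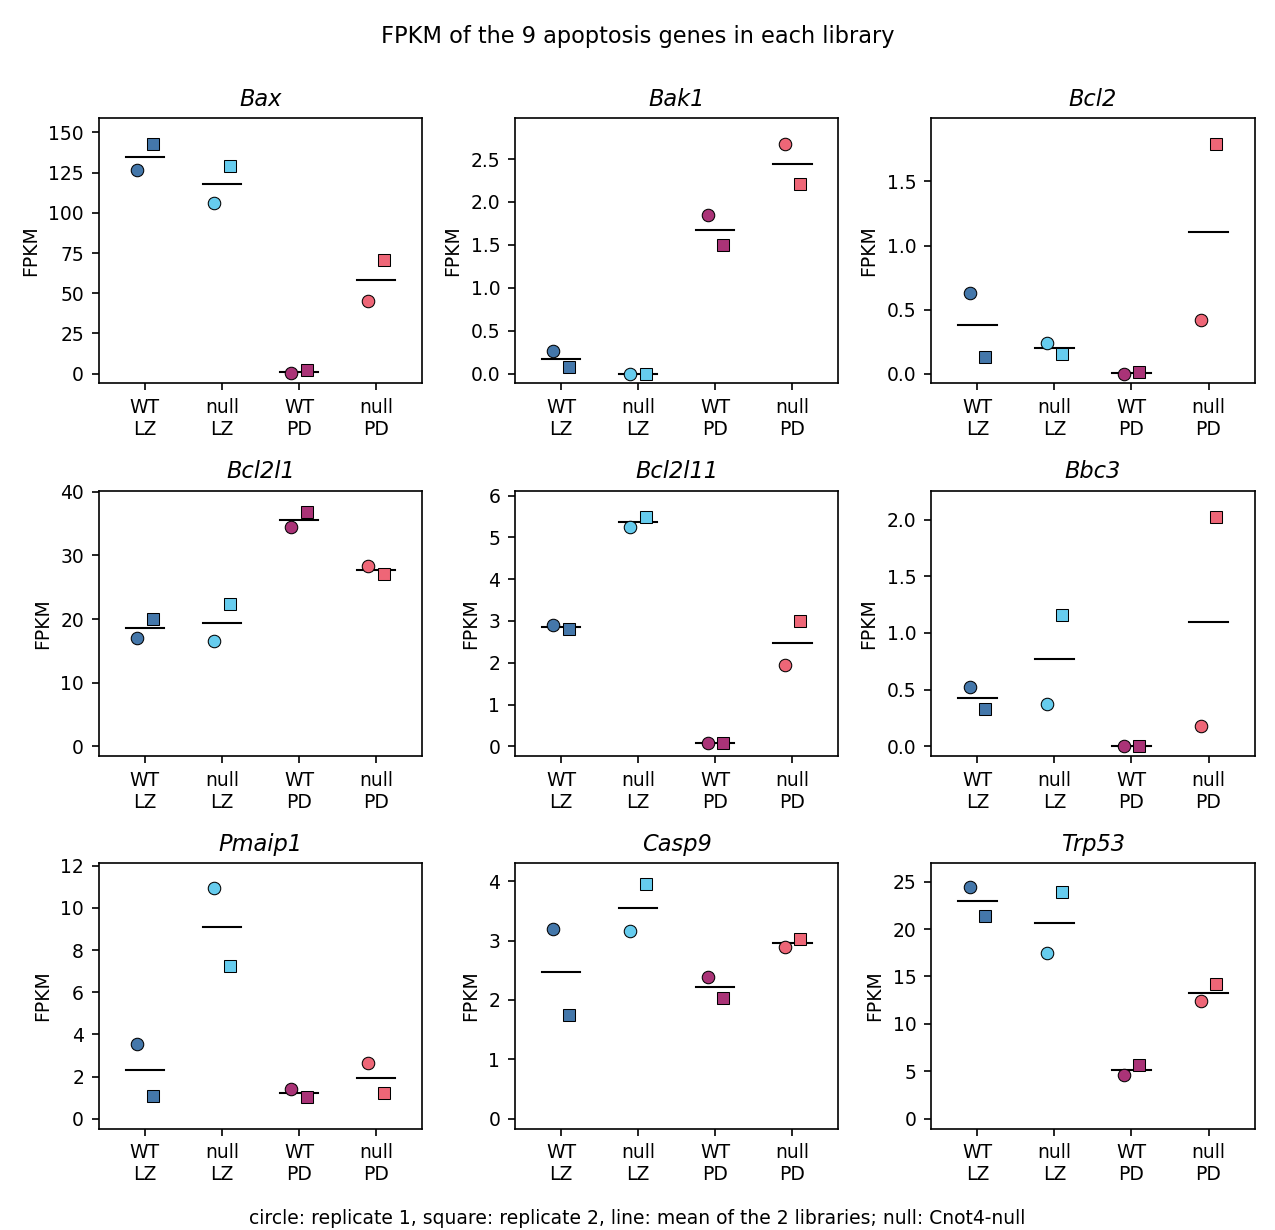
FPKM of each of the 9 genes (vertical axis, linear from 0, with its own scale in each panel) in the 8 libraries, with circles for replicate 1, squares for replicate 2 and a line at the mean of the 2 libraries. Bax, Bcl2l11 and Trp53 were lowest in WT PD, whereas Bak1 was higher at PD than at LZ in both genotypes.

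Bax encodes the effector that forms pores in the outer mitochondrial membrane, and in mm9 it lies on chromosome 7 from 52717065 to 52722268 on the minus strand. The LZ libraries gave 127 and 143 FPKM for Bax in WT, and 106 and 129 FPKM in Cnot4-null. By PD, WT held 0.385 and 2.29 FPKM, while Cnot4-null held 45.5 and 70.5 FPKM. The genotypes overlapped at LZ, WT PD lay far below every other library, and Cnot4-null PD lay between WT PD and the LZ libraries without overlap. The group means with their SD (n = 2 each) were 135 ± 11.4 FPKM (WT LZ), 118 ± 16.0 FPKM (Cnot4-null LZ), 58.0 ± 17.7 FPKM (Cnot4-null PD) and 1.34 ± 1.35 FPKM (WT PD). Within a library, Bax stood above 94.6% and 95.2% of tested genes in WT LZ, above 26.0% and 46.6% in WT PD and above 82.6% and 91.2% in Cnot4-null PD.

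In WT, Bax fell by 5.99 on the log2 scale from LZ to PD (SE 0.41, adjusted p = 3.63e-05), a ratio of mean FPKM of 101 in favour of LZ. At PD it was higher in Cnot4-null by 4.75 (SE 0.41, adjusted p = 0.000259), in 2 of 2 libraries, with a ratio of mean FPKM of 43.3. Taken against the median of all genes this is 4.09, while quantile normalization gave 4.09 and rescaling 3.69. Bax was thus called higher at PD under all 17 alternatives, with a log2 change between 3.30 and 5.72. At LZ the change was -0.20 (SE 0.41, adjusted p = 1.00). The difference between the genotype effects at the stages was 4.95 (SE 0.58, adjusted p = 0.00220), called under all 16 alternatives. In Cnot4-null the change from LZ to PD was -1.03 (SE 0.41) and was not called, with an adjusted p of 0.0760 and a range of 0.0192 to 0.317 over the alternatives, 5 of 17 of which called it, among them rescaling (-1.62) and the fits without either WT PD library (-1.03 each). The stage and genotype comparisons at PD share the WT PD libraries, so both changes are measured from 0.385 and 2.29 FPKM.

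Among 9347 genes with a mean of at least 5 FPKM, the profile over the 8 libraries closest to that of Bax was that of Hmgb3, a chromatin protein gene, with a root mean square difference of 0.260 on the centred log2 scale. Hmgb3 was listed at 1.76 and 3.07 FPKM for WT PD but 69.4 and 73.9 FPKM for Cnot4-null PD. Trappc2, which encodes a subunit of a vesicle tethering complex, came next at 0.374. The shape of Bax, high at LZ, near 0 in WT PD and in between in Cnot4-null PD, was therefore also that of Hmgb3, a gene outside the pathway.

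Bak1 encodes the other pore-forming effector and lies on chromosome 17 from 27156755 to 27165954 on the minus strand. The WT LZ libraries held 0.260 and 0.0818 FPKM, and those of Cnot4-null LZ are both listed at 0. In the later stage Bak1 had 1.85 and 1.50 FPKM in WT, beside 2.67 and 2.21 FPKM in Cnot4-null. All 4 PD libraries lay above all 4 LZ libraries, and Bak1 passed the filter through the PD libraries alone, the stage in which it was high, which limits what its stage comparisons can show. All values were low, so that Bax exceeded Bak1 in every library other than WT PD replicate 1, where Bak1 was higher. In WT, Bak1 rose by 1.19 from LZ to PD (SE 0.25, adjusted p = 0.00444), under all 16 alternatives. In Cnot4-null it was also called higher at PD (adjusted p = 0.00156), with no fold given because Cnot4-null LZ is listed at 0. At PD the genotypes differed by 0.36 (SE 0.25, adjusted p = 0.239), not called. That direction turned when the libraries were put on a common scale, to -1.12 after quantile normalization, which was called (adjusted p = 0.0110, range 0.0110 to 0.544 over the alternatives), and to -0.61 after rescaling.

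At LZ, Bax made up most of the total of the 9 genes, which came to 179 and 190 FPKM for WT LZ, to 45.1 and 49.5 FPKM for WT PD and to 96.9 and 125 FPKM for Cnot4-null PD. In Cnot4-null LZ that total was 160 and 193 FPKM, overlapping WT LZ.

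Bcl2 encodes the founding survival protein of the family and lies on chromosome 1 from 108434755 to 108610851 on the minus strand. Values of Bcl2 were 0.627 and 0.127 FPKM in WT at LZ, beside 0.238 and 0.156 FPKM in Cnot4-null. The PD libraries gave 0 and 0.0168 FPKM in WT, and 0.422 and 1.79 FPKM in Cnot4-null. It passed the filter through Cnot4-null PD replicate 2 alone, and the other 7 libraries were all under 1 FPKM. At PD the genotypes differed by 0.98 (SE 0.37) and Bcl2 was not called, with an adjusted p of 0.0561 that ran from 0.00621 to 0.616 over the alternatives. Without Cnot4-null PD replicate 1 the change was 1.47 and was called, as it was with a pseudocount of 0.1, where it was 3.20. On the deposited scale no other comparison called Bcl2, and without Cnot4-null PD replicate 1 it was called from LZ to PD in Cnot4-null (1.22, adjusted p = 0.0148, range 0.0148 to 0.836) and in the interaction (1.65, adjusted p = 0.0129, range 0.0129 to 0.578). Calls without that library count for less, since the only library above 1 FPKM then stands alone for its group.

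Bcl2l1 encodes BCL-XL, a survival protein, and lies on chromosome 2 from 152593052 to 152657464 on the minus strand. The LZ libraries gave 17.1 and 20.0 FPKM for Bcl2l1 in WT, and 16.5 and 22.3 FPKM in Cnot4-null. By PD, WT held 34.4 and 36.9 FPKM, while Cnot4-null held 28.3 and 27.0 FPKM. Every PD library lay above every LZ library, the genotypes overlapped at LZ, and Cnot4-null PD lay below WT PD without overlap. The means with their SD (n = 2 each) were 35.6 ± 1.75 FPKM in WT PD and 27.7 ± 0.877 FPKM in Cnot4-null PD. In WT, Bcl2l1 rose by 0.91 from LZ to PD (SE 0.21, adjusted p = 0.00805), called under 16 of 17 alternatives and lost without WT PD replicate 2, where the change was 0.86.

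At PD the genotypes differed in Bcl2l1 by -0.35 (SE 0.21, adjusted p = 0.191), not called. Relative to the median of all genes the change was -1.02, after quantile normalization it was -0.53, and after rescaling it was -1.75, which was called. The direction was lower under each of these scalings, and the call depended on them, with an adjusted p between 0.000809 and 0.442 over the alternatives. The interaction for Bcl2l1 was -0.41, not called, but was called at -1.84 after rescaling. Without Cnot4-null LZ replicate 2 it was -0.20. Among the 2 profiles closest to that of Bcl2l1 was that of 2610301G19Rik, at a root mean square difference of 0.119.

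The ratio of effector to survival transcript can be taken within each library, where scaling between libraries plays no part. Such a ratio does not remove differences in the mix of cells. The Cnot4-null PD libraries were high in markers of Leydig cells and spermatids, and the part of those cells in the ratios was not tested. At LZ the ratio of Bax to Bcl2l1 in FPKM was 7.41 and 7.12 for WT, and 6.44 and 5.77 for Cnot4-null. At PD it was 0.0112 and 0.0622 in WT and 1.61 and 2.61 in Cnot4-null. The WT PD ratios rest on Bax at 0.385 and 2.29 FPKM, so their size is uncertain. Bax thus exceeded Bcl2l1 in all libraries except those of WT PD, where Bcl2l1 was the more abundant by a wide margin. Against the sum of Bcl2, Bcl2l1, Mcl1 and Bcl2l2, the ratio of Bax came to 2.09 and 2.79 (WT LZ), 1.94 and 2.30 (Cnot4-null LZ), 0.00616 and 0.0342 (WT PD), and 0.788 and 1.08 (Cnot4-null PD). These ratios concern transcripts, and protein was not analysed here.

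Bcl2l11 encodes BIM, a BH3-only protein that binds all survival members, and lies on chromosome 2 from 127951774 to 127988283 on the plus strand. For Bcl2l11, WT LZ held 2.90 and 2.80 FPKM, while Cnot4-null LZ held 5.24 and 5.50 FPKM. In the later stage Bcl2l11 had 0.0840 and 0.0728 FPKM in WT, beside 1.95 and 2.998 FPKM in Cnot4-null. At each stage both Cnot4-null libraries lay above both WT libraries, WT PD was lowest, and Cnot4-null PD spanned the values of WT LZ. In WT, Bcl2l11 fell by 1.84 from LZ to PD (SE 0.26, adjusted p = 0.000723), under all 16 alternatives. At PD it was higher in Cnot4-null by 1.67 (SE 0.26, adjusted p = 0.00216), in 2 of 2 libraries, and by 1.01 relative to the median of all genes. The direction held under both scalings, with 1.17 after rescaling and 0.54 after quantile normalization, where the call was lost (adjusted p = 0.108, range 0.000520 to 0.108).

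At LZ, Bcl2l11 differed by 0.73 between genotypes (SE 0.26), with an unadjusted p of 0.0263 from limma and an adjusted p of 0.728, so it was not called. In Cnot4-null it fell by 0.89 from LZ to PD (adjusted p = 0.0277, range 0.00173 to 0.125), a call that held under 10 of 16 alternatives. It was lost with a pseudocount of 0.1, with only the libraries compared, without Cnot4-null LZ replicate 1 (-0.92), without replicate 2 of that group (-0.86) and without either WT PD library (-0.89 each). The difference of the genotype effects was 0.95 (SE 0.37, adjusted p = 0.0915, range 0.0115 to 0.753), not called, and it was -0.16 after quantile normalization. It was called under 2 of 15 alternatives, with a pseudocount of 0.1 (2.93) and without Cnot4-null PD replicate 1 (1.16). Whether the effect on Bcl2l11 differed between stages was therefore not shown.

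Bbc3 encodes PUMA, a BH3-only protein induced by p53, and lies on chromosome 7 from 16894965 to 16903554 on the plus strand. Values of Bbc3 were 0.527 and 0.332 FPKM in WT at LZ, beside 0.376 and 1.16 FPKM in Cnot4-null. At PD it was listed at 0 in each WT library, whereas Cnot4-null held 0.175 and 2.03 FPKM. The values were low throughout, the genotypes overlapped at LZ, and the Cnot4-null PD libraries lay on either side of the LZ values. At PD Bbc3 was not called (adjusted p = 0.128, range 0.00948 to 0.541), though 2 of 16 alternatives called it. No fold is read for Bbc3 because WT PD is listed at 0, and its fitted 0.92 was given above only as the median of the 9. With all libraries as deposited no other comparison called Bbc3, while 1 of 16 alternatives called it from LZ to PD in WT (range of adjusted p 0.0149 to 0.645) and 1 of 15 in the interaction (0.0424 to 0.991).

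Pmaip1 encodes NOXA, a small BH3-only protein that is also a target of p53. The LZ libraries gave 3.56 and 1.08 FPKM for Pmaip1 in WT, and 10.9 and 7.27 FPKM in Cnot4-null. By PD, WT held 1.41 and 1.05 FPKM, while Cnot4-null held 2.66 and 1.23 FPKM. Cnot4-null LZ was thus the highest group, above every other library, and the genotypes overlapped at PD. At LZ the genotypes differed by 1.69 (SE 0.45), in 2 of 2 libraries, with an unadjusted p of 0.00650 and an adjusted p of 0.598 from limma, so Pmaip1 was not called. In Cnot4-null it fell by 1.80 from LZ to PD (SE 0.45, adjusted p = 0.0150, range 0.00369 to 0.0998), called under 13 of 16 alternatives and lost with no filter, without Cnot4-null LZ replicate 1, where the change was -1.53, or Cnot4-null PD replicate 2, where it was -1.44. At PD the genotypes differed by 0.36 (SE 0.45, adjusted p = 0.507), with the direction turned to -1.06 after quantile normalization and to -0.50 after rescaling. This change at PD rested on single libraries, reaching 0.72 without Cnot4-null PD replicate 2 and shrinking without Cnot4-null PD replicate 1. The interaction for Pmaip1 was -1.33 (SE 0.63, adjusted p = 0.147, range 0.0218 to 0.344), not called as deposited, but called at -2.71 after quantile normalization and at -2.20 after rescaling.

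Of these 3 BH3-only genes, Bcl2l11 alone was called between genotypes at PD on the deposited scale.

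Casp9 encodes caspase-9, the initiator that is activated on the apoptosome, and lies on chromosome 4 from 141349527 to 141371891 on the plus strand. For Casp9, WT LZ held 3.20 and 1.75 FPKM, while Cnot4-null LZ held 3.15 and 3.95 FPKM. In the later stage Casp9 had 2.39 and 2.03 FPKM in WT, beside 2.90 and 3.02 FPKM in Cnot4-null. The 4 groups lay close together, between 1.75 and 3.95 FPKM in all 8 libraries, with overlap between all pairs of groups compared save the stages in Cnot4-null and the genotypes at PD. At PD the genotypes differed by 0.30 (SE 0.29, adjusted p = 0.396), not called, and the direction turned to -1.16 after quantile normalization, which was called (adjusted p = 0.0205, range 0.0205 to 0.692), and to -0.74 after rescaling. No comparison on the deposited scale called Casp9, but after quantile normalization it was called from LZ to PD in Cnot4-null (-0.98) and in the interaction (-1.57).

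Trp53 encodes p53 and lies on chromosome 11 from 69393861 to 69405375 on the plus strand. Values of Trp53 were 24.4 and 21.4 FPKM in WT at LZ, beside 17.5 and 23.9 FPKM in Cnot4-null. The PD libraries gave 4.57 and 5.67 FPKM in WT, and 12.4 and 14.2 FPKM in Cnot4-null. The genotypes overlapped at LZ, WT PD was lowest, and Cnot4-null PD lay between WT PD and the LZ libraries without overlap, the same order as for Bax. The means with their SD (n = 2 each) were 22.9 ± 2.13 FPKM (WT LZ), 20.7 ± 4.55 FPKM (Cnot4-null LZ), 13.3 ± 1.32 FPKM (Cnot4-null PD) and 5.12 ± 0.772 FPKM (WT PD).

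In WT, Trp53 fell by 1.97 from LZ to PD (SE 0.24, adjusted p = 0.000328), under all 17 alternatives. At PD it was higher in Cnot4-null by 1.23 (SE 0.24, adjusted p = 0.00519), in 2 of 2 libraries, with a ratio of mean FPKM of 2.60. This change depended on the scale between libraries. Taken against the median of all genes it was 0.57, with quantile normalization 0.35 (adjusted p = 0.332), and with rescaling -0.05 (adjusted p = 0.874), within a range of 0.00357 to 0.874 over the alternatives. The difference of the genotype effects was 1.38 (SE 0.34, adjusted p = 0.0224), called under 10 of 16 alternatives, with a range of 0.0155 to 0.898. It was lost after both scalings, without WT LZ replicate 1 (1.29), without Cnot4-null LZ replicate 1 (1.17), without WT PD replicate 1 (1.25) and without WT PD replicate 2 (1.51). From LZ to PD in Cnot4-null the change of Trp53 was -0.59 (SE 0.24, adjusted p = 0.0801, range 0.00871 to 0.319), not called as deposited, but called at -0.91 after quantile normalization and at -1.13 after rescaling.

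By rank, Trp53 stood above 76.4% and 74.4% of tested genes in WT at LZ, 55.1% and 58.0% in WT at PD, but 59.3% and 63.3% in the mutant at PD. Its place among other genes of the same library was thus nearer to WT PD than to WT LZ in both Cnot4-null PD libraries, whereas Bax in Cnot4-null PD ranked closer to LZ. The closest profiles to that of Trp53 were those of Phb2, a prohibitin of the inner mitochondrial membrane, at 0.126, and of Smndc1, a splicing factor gene, at 0.137. Phb2 was listed at 39.2 and 41.3 FPKM in the WT PD libraries, compared with 95.7 and 87.5 FPKM in those of Cnot4-null.

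**Figure D3:**
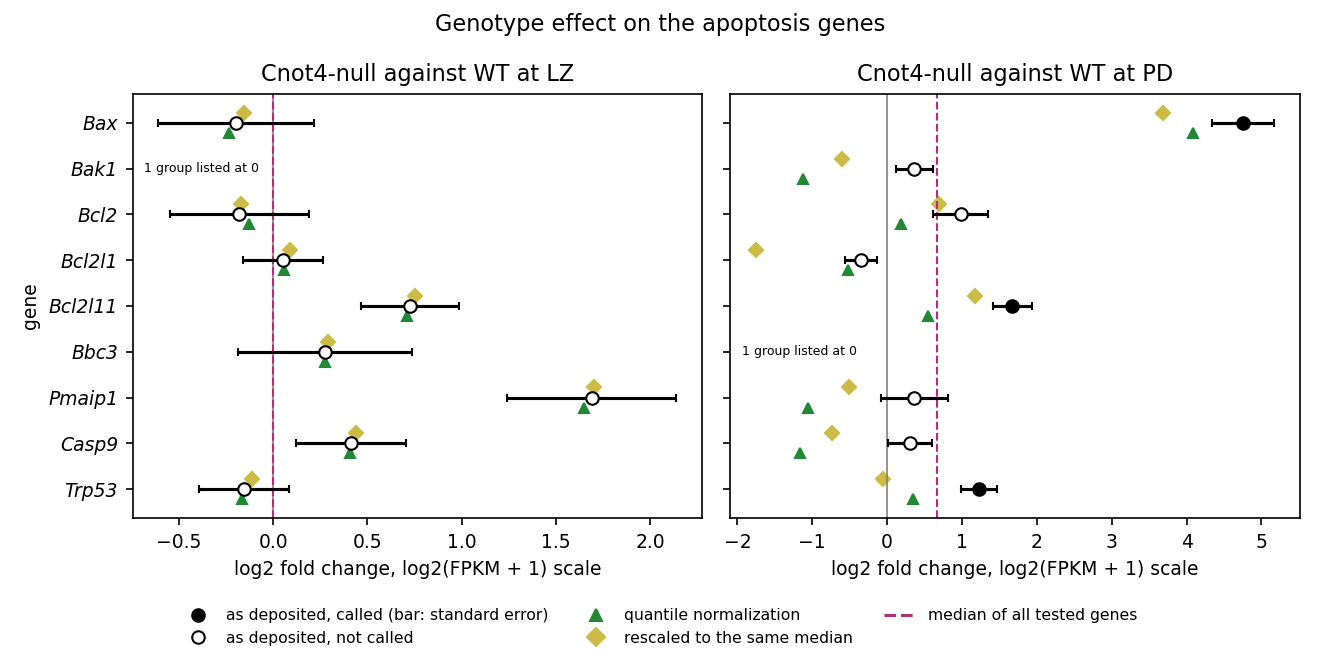
Log2 change between Cnot4-null and WT (horizontal axis, log2(FPKM + 1) scale) for each gene at LZ and at PD, as deposited (circles with the standard error, filled where called), after quantile normalization (triangles) and after rescaling to the same median (diamonds), with the median of all tested genes as a dashed line. At PD, Bax stays at 3.69 or above under each scaling, while Bak1, Pmaip1 and Casp9 turn below 0 under both scalings and Trp53 turns to -0.05 after rescaling.

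The other genes of the pathway were taken from 9 lists of 68 genes, all present in the files, of which 57 passed the filter. The lists, too, were chosen with earlier results of these data known. At PD, 37 of the 57 were called between genotypes, 32 higher and 5 lower, beside 53.1% of all genes, 41.6% higher and 11.5% lower. Their median log2 change was 1.02, and 0.93 without the 6 genes listed at 0 in WT PD, beside 0.66 and 0.62 for all tested genes. After quantile normalization 17 were higher and 10 lower, beside 17.8% and 25.6% of all genes, and after rescaling 20 were higher and 17 lower, beside 23.3% and 40.1%. At LZ none of the 57 was called by limma, and 3 had an unadjusted p under 0.05. The interaction was called for 25 of the 57, 24 of them with a more positive change at PD, and Birc2 with a more negative one, beside 30.0% of all genes, 26.0% more positive and 3.97% more negative. Under quantile normalization 8 were more positive and 6 more negative, beside 1548 and 1966 of all 15899 genes, and under rescaling 15 and 12, beside 2167 and 5146.

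Among the remaining BCL2 family genes, Bok, a relative of the effectors, was listed at 0.521 and 0.0955 FPKM for WT PD but 9.73 and 12.2 FPKM for Cnot4-null PD. It was called higher at PD by 3.20 (SE 0.29, adjusted p = 0.000281), where quantile normalization gave 2.24 and rescaling 2.42. Of 4 tested BH3-only genes other than those above, 2 rose, Bik by 2.90 and Bid by 2.03, and 1 fell, Bad, beside 41.6% and 11.5% of all genes. Under each scaling Bik stayed called, whereas Bid lost its call after quantile normalization (0.84, adjusted p = 0.129, range 0.00204 to 0.129). Bad, whose product binds BCL-XL, was listed at 57.9 and 51.6 FPKM (WT PD), beside 34.4 and 23.8 FPKM (Cnot4-null PD), a change of -0.91 (adjusted p = 0.0216, range 0.000600 to 0.125), lower under each scaling and not called without Cnot4-null PD replicate 2 (-0.65), WT PD replicate 1 (-0.83) or WT PD replicate 2 (-0.99). Of the 3 tested survival genes none was called on the deposited scale, and the most abundant, Mcl1, was listed at 27.6 and 29.6 FPKM in the WT PD libraries, compared with 28.2 and 34.3 FPKM in those of Cnot4-null. For Mcl1 the genotypes overlapped as deposited, with a change of 0.12, but the direction turned to -0.08 after quantile normalization and to -1.28 after rescaling, which was called (adjusted p = 0.00222, range 0.00222 to 0.958). Of 4 divergent family members 1 was called higher and 0 lower as deposited, 1 higher and 2 lower after quantile normalization, and 1 higher and 3 lower after rescaling. Over all genes these shares were 41.6% and 11.5%, 17.8% and 25.6%, and 23.3% and 40.1%, so 1 of 4 higher is below the deposited background. The higher gene was Bcl2l14, which rose from 3.75 and 2.97 FPKM in WT PD to 38.5 and 36.8 FPKM in Cnot4-null PD and was higher under each scaling.

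Of 10 tested genes of the apoptosome and the other caspases, 7 rose at PD and 1 fell, beside 41.6% and 11.5% of all genes, while 4 and 1 did so after quantile normalization, beside 17.8% and 25.6%, and 7 and 1 after rescaling, beside 23.3% and 40.1%. Of the 7, Casp1, Casp4 and Casp12 passed the filter through the Cnot4-null PD libraries alone, the group in which they were high, so they count for less. Cycs, which encodes somatic cytochrome c, was listed at 3.68 and 4.64 FPKM for WT PD but 58.1 and 63.7 FPKM for Cnot4-null PD, a change of 3.59 (SE 0.21, adjusted p = 0.000108). Cyct, which encodes the testis form of cytochrome c, was listed at 1179 and 1267 FPKM (WT PD), beside 722 and 371 FPKM (Cnot4-null PD), a change of -1.24 (SE 0.34, adjusted p = 0.0186, range 0.000698 to 0.113). The call for Cyct was lost without Cnot4-null PD replicate 2 (-0.76), WT PD replicate 1 (-1.29) or WT PD replicate 2 (-1.19). The somatic and the testis form thus moved in opposite directions, under each scaling as well. At LZ Cycs was listed between 129 and 194 FPKM and Cyct between 79.2 and 114 FPKM. Casp2, an initiator caspase, rose by 2.46 from 1.53 and 1.37 FPKM to 10.3 and 15.1 FPKM. Casp12 was not called without WT PD replicate 1 (1.00) or WT PD replicate 2 (0.85). Casp1 and Casp4, caspases of inflammation, were listed at 0 in the 6 libraries outside Cnot4-null PD and at 3.44 and 1.73 FPKM, and 1.52 and 1.08 FPKM, in Cnot4-null PD.

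Of the 7 caspase inhibitors and their antagonists all were called at PD, 4 higher and 3 lower, beside 41.6% and 11.5% of all genes. Xiap, a direct inhibitor of caspases, rose by 2.34 from 0.182 and 0.148 FPKM to 3.64 and 6.49 FPKM. Diablo, whose product relieves that inhibition, was listed at 857 and 779 FPKM in the WT PD libraries, compared with 368 and 179 FPKM in those of Cnot4-null, a change of -1.67 (SE 0.33, adjusted p = 0.00561, range 0.000488 to 0.0572). Birc5, which encodes survivin, changed by -1.14 and Birc2 by -1.13, both lower under each scaling. Birc5 was not called without WT PD replicate 1 (-1.09) or WT PD replicate 2 (-1.19), nor Birc2 without WT PD replicate 2 (-1.08). Of the higher genes, Birc3 was not called without WT PD replicate 1 (0.88) or WT PD replicate 2 (0.94). Htra2, at 0.80 as deposited and -0.54 after rescaling, was not called in any fit with 1 library left out other than that without Cnot4-null PD replicate 1, and was 0.53 without Cnot4-null PD replicate 2. Either scaling left 1 of the 7, Xiap, higher and 3 lower, beside 17.8% and 25.6% of all genes after quantile normalization and 23.3% and 40.1% after rescaling.

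Of 14 tested target genes of p53, 9 were called higher at PD and 0 lower, beside 41.6% and 11.5% of all genes, and after each scaling 5 were higher and 1 lower, beside 17.8% and 25.6% after quantile normalization and 23.3% and 40.1% after rescaling. Of the 9, Sesn1 (0.97) and Lrdd (1.23) were not called in any fit with 1 library left out other than that without Cnot4-null PD replicate 1, and were 0.51 and 0.73 without Cnot4-null PD replicate 2. Sesn1 also turned to -0.21 after quantile normalization and -0.23 after rescaling. Btg2, an antiproliferative gene, was listed at 0.0890 and 0.163 FPKM for WT PD but 8.68 and 28.6 FPKM for Cnot4-null PD, a change of 3.91 (SE 0.48, adjusted p = 0.000842). Cdkn1a, which encodes the cell cycle inhibitor p21, was listed at 0.525 and 0 FPKM (WT PD), beside 5.12 and 7.90 FPKM (Cnot4-null PD), a change of 2.58. Ccng1 rose by 3.03 and Phlda3 by 3.08, and each of these 4 genes stayed higher under both scalings. Gadd45a, a gene of the damage response, was listed at 0 in WT PD (replicates 1 and 2) but reached 5.17 and 13.0 FPKM in Cnot4-null PD. The median change of the list was 1.31, beside 0.66 for all tested genes. After quantile normalization it was 0.40 and after rescaling 0.57, beside -0.10 and -0.21. At LZ Ccng1 lay between 33.6 and 44.2 FPKM and Btg2 between 13.4 and 17.8 FPKM over both genotypes, and limma called none of the 14 there, with 1 at an unadjusted p under 0.05.

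Of 7 tested regulators and relatives of p53, 3 were called higher, Trp53bp1, Trp53bp2 and Usp7, with log2 changes of 0.60, 1.53 and 0.71, but after quantile normalization 1 was higher and 1 lower, and after rescaling 0 were higher and 6 lower. The shares over all genes were 41.6% higher and 11.5% lower as deposited, 17.8% and 25.6% after quantile normalization and 23.3% and 40.1% after rescaling, so 3 of 7 is close to the background. Neither Trp53bp1 nor Usp7 was called without WT PD replicate 1 (0.61 and 0.75) or WT PD replicate 2 (0.58 and 0.67). The direction of Trp53bp1 and Usp7 turned after rescaling, to -0.74 and -0.69, and that of Trp53bp1 also after quantile normalization, to -0.07. For Trp53bp1 the paper reports lower mRNA in Cnot4-null by RT-qPCR of isolated pachytene spermatocytes, a direction opposite to that on the deposited scale. Mdm2, which encodes the ubiquitin ligase of p53 and was the most abundant of the list, was listed at 85.5 and 86.1 FPKM in the WT PD libraries, compared with 75.8 and 62.9 FPKM in those of Cnot4-null, and was not called. Of 7 tested genes of the death receptor pathway 5 were called higher and 0 lower, beside 41.6% and 11.5% of all genes, and after each scaling 3 were higher and 1 lower, beside 17.8% and 25.6% (quantile normalization) and 23.3% and 40.1% (rescaling). Of the 5, Tradd, listed at 0 in WT PD, was not called without either WT PD library or either Cnot4-null LZ library. Tnfrsf1a, a receptor of TNF, rose by 2.74 from 0.459 and 0.0601 FPKM to 5.80 and 9.11 FPKM, and Cflar, which encodes the caspase-8 inhibitor FLIP, rose by 1.90. Fas and Fasl did not pass the filter, with Fas listed at 0 in 5 libraries and at most at 0.847 FPKM.

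**Figure D4:**
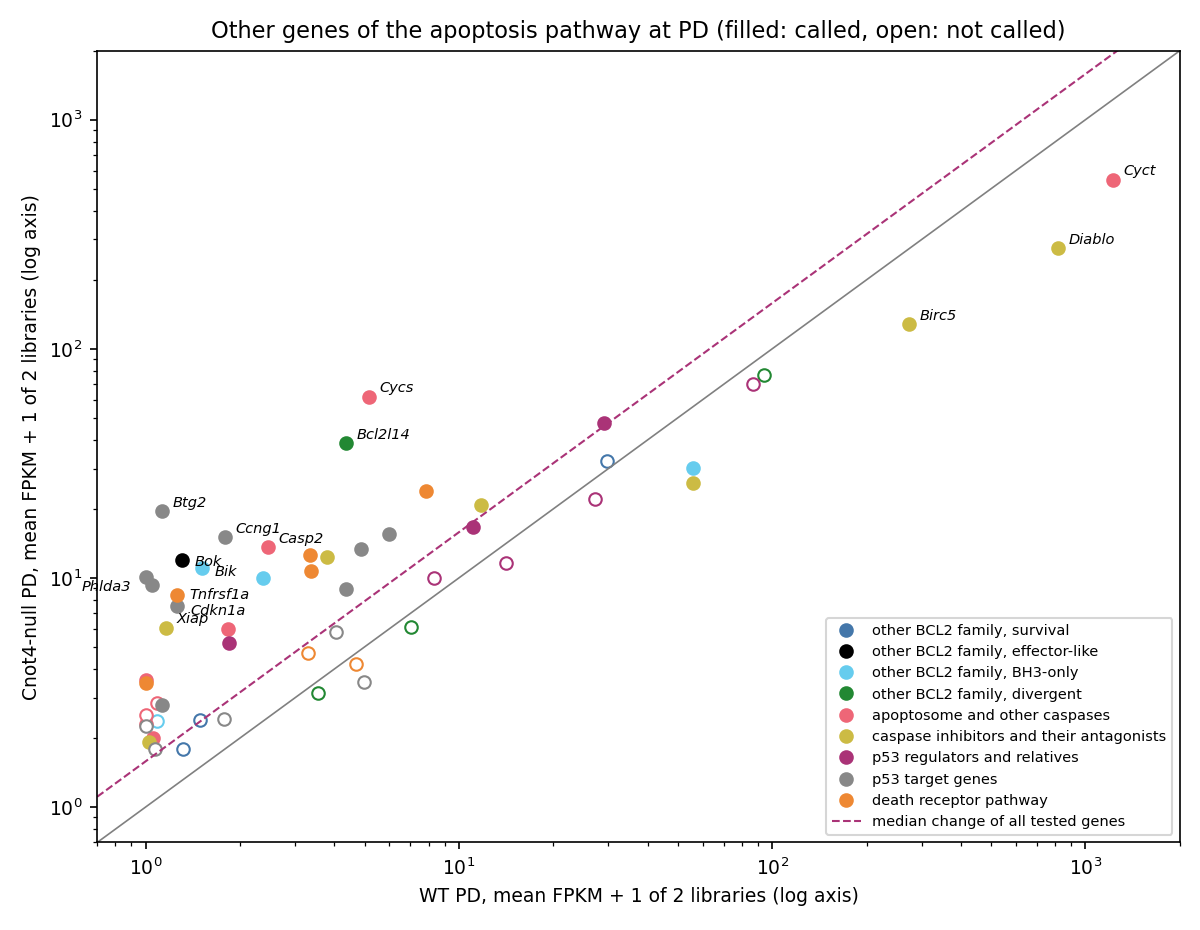
Mean FPKM + 1 of tested pathway genes, not all of which are shown, in WT PD (horizontal axis, logarithmic) and in Cnot4-null PD (vertical axis, logarithmic), filled where called and coloured by list, with the line of equality in grey and the median change of all tested genes dashed. Most called genes lie above the dashed line, and Cyct, Diablo and Birc5 lie below equality, as they did after both scalings, while the count of higher genes fell from 32 to 17 and 20 under them.

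In WT, 39 of the 57 pathway genes were called between stages, 29 lower and 10 higher at PD, beside 57.8% of all genes, 36.2% lower and 21.6% higher. Of the 10, Bcl2l15 and Zmat3 passed the filter through PD libraries alone, the stage in which they were high, so their calls count for less. To place Cnot4-null PD on the path between the WT stages, its FPKM was expressed as a percentage of the distance from the mean of WT PD, at 0, to the mean of WT LZ, at 100. This is a description, since it shares the WT PD libraries with both comparisons. The places use the deposited FPKM alone and depend on the scale between libraries, since after rescaling the changes between genotypes at PD were -0.05 for Trp53 and -1.75 for Bcl2l1. As deposited, Bax stood at 33.1% and 51.9% in the Cnot4-null PD libraries, and Trp53 at 40.8% and 51.3%. Bcl2l11 stood at 67.6% and 105%, and Bcl2l1, which rose along the WT stages, stood at 43.1% and 50.3%. Bak1 stood at -66.3% and -35.3%, beyond WT PD and away from LZ. The 29 pathway genes that fell along the WT stages had a median place of 50.8%, and all 5754 genes that fell had one of 47.2%. The 10 pathway genes that rose had a median place of 41.3%, beside 59.0% for all 3436 genes that rose. These medians differed between the Cnot4-null PD libraries. In replicates 1 and 2 they were 34.6% and 62.4% for the 10, and 43.2% and 75.6% for all genes that rose.

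**Figure D5:**
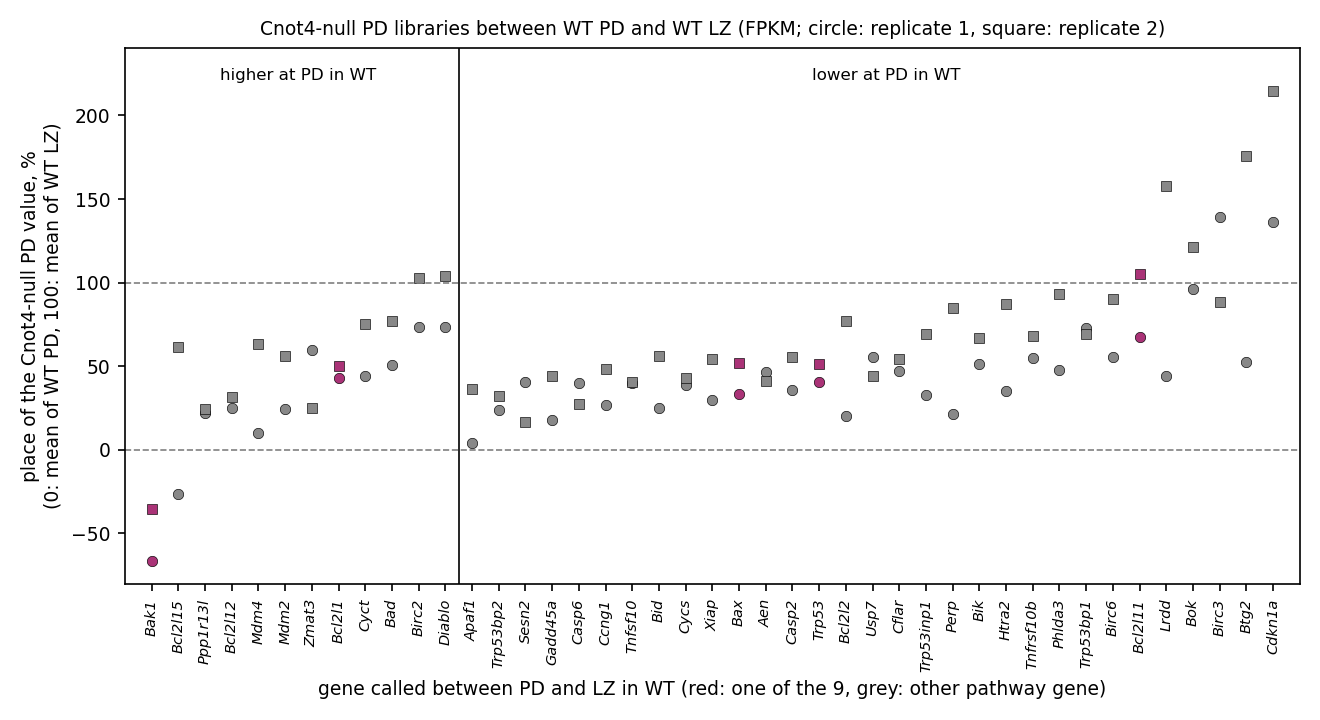
Place of the Cnot4-null PD libraries between the mean of WT PD (0%) and the mean of WT LZ (100%) on the deposited FPKM scale (vertical axis) for the genes called between stages in WT, with the 9 genes in red, other pathway genes, not all of which are shown, in grey, circles for replicate 1 and squares for replicate 2. Bax, Trp53 and Bcl2l1 lie between 33.1% and 51.9%, and Bak1 lies below 0%.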

How the data were processed

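The authors deposited FPKM per gene symbol for each library, made with TopHat2 2.1.1 on mm9 and Cufflinks 2.2.1. Read totals were not used, and a relative depth estimated per library from the lowest values entered no comparison. The 8 libraries entered a single limma fit (version 3.58.1 under R 4.3.3; functions lmFit and contrasts.fit, then eBayes with its trend option) on log2(FPKM + 1) as 4 group means with 4 residual degrees of freedom and 5 contrasts, two-sided, for the 15899 genes that exceeded 1 FPKM in some library, with Benjamini-Hochberg adjustment over all of them and a threshold of 0.05. The pipeline was tested on simulated data that held few changed genes and no shift of the whole distribution. That test cannot show how calls at PD depend on the scale between libraries. Tables were made with pandas 2.3.3 and numpy 2.4.6.

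Alternatives were no filter, a mean of at least 5 FPKM, pseudocounts of 0.1 and 5, quantile normalization, rescaling to the same median, eBayes without a trend, only the libraries compared, a replicate block and leaving out each library. The members and lists were chosen with earlier results of these data known. Named were the 9 genes, pathway genes called at PD or among the 4 most abundant of a list, Cnot4, up to 2 nearest profiles of each of the 9 with a mean of at least 5 FPKM, and the most abundant and defining markers; Fas, Fasl and the genes in the plot of places between stages were named after their values were seen. Symbols were matched by name, with Lrdd for Pidd1, 9630033F20Rik for Tigar, 4930528F23Rik for Meiob and Emr1 for Adgre1, so that 45 of 47 marker symbols had an entry, and Rhox5 had none. Gene positions are from GENCODE on NCBIM37 (mm9), and promoter windows are from RefSeq on GRCm38.p6.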

Additional observations from a re-analysis of the deposited data

Results flagged for a closer look

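For Bax the genotype effect at PD differed from that at LZ by 4.95 on the log2 scale in a test of the difference itself, with all 4 groups in 1 fit. The effect was 4.75 at PD and -0.20 at LZ. For Trp53 the same test gave a difference of 1.38, from effects of 1.23 at PD and -0.15 at LZ, and the effect at PD was -0.05 after rescaling to the same median. The difference for Trp53 was 0.52 after quantile normalization and 0.06 after rescaling, and did not pass under either. The other 7 genes did not pass this test on the deposited scale, while Pmaip1 (-2.71) and Casp9 (-1.57) passed after quantile normalization, and Pmaip1 (-2.20) and Bcl2l1 (-1.84) after rescaling, and the cause was not tested for any gene.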

How the results depend on the processing

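Bax was called at PD, from LZ to PD in WT and in the interaction under every alternative that was run, and none of the 9 genes was called at LZ by limma under any. Directions turned as follows, and the cause was not tested. At PD, quantile normalization gave -1.12 for Bak1, -1.06 for Pmaip1 and -1.16 for Casp9, and rescaling to the same median gave -0.61, -0.50 and -0.74 for them and -0.051 for Trp53. From LZ to PD in WT the same scalings gave 0.23 and 0.077 for Pmaip1 and 0.59 and 0.57 for Casp9. In Cnot4-null, quantile normalization gave -0.076 for Bcl2 and -0.55 for Bbc3, rescaling gave -0.066 for Bcl2l1 and -0.11 for Bbc3, and a pseudocount of 0.1 gave -0.019 for Bbc3. The interaction of Bcl2l11 was -0.16 after quantile normalization. Comparisons of Bak1 with Cnot4-null LZ, and of Bbc3 with WT PD, have no fold because those groups are listed at 0. Turns of these comparisons, the interactions of Bak1 and Bbc3 included, are not listed here or in the next paragraph.

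With 1 library left out, the lone library of a group is assumed to vary like the other groups. Over these fits the LZ change of Bcl2 ranged from -0.44 to 0.086 (turned without WT LZ replicate 1), of Bcl2l1 from -0.16 to 0.26 (turned without WT LZ replicate 1, to -0.06, or Cnot4-null LZ replicate 2), of Bbc3 from -0.052 to 0.60 (Cnot4-null LZ replicate 2) and of Trp53 from -0.37 to 0.062 (Cnot4-null LZ replicate 1). From LZ to PD in WT, Pmaip1 ranged from -1.03 to 0.097 and Casp9 from -0.39 to 0.22, both turned without WT LZ replicate 1. In Cnot4-null, Bbc3 ranged from -0.55 to 0.81, turned without Cnot4-null LZ replicate 1 (-0.20) or Cnot4-null PD replicate 2. The interaction of Casp9 ranged from -0.42 to 0.19, turned without WT LZ replicate 2 or Cnot4-null LZ replicate 2 (0.015).

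Of all genes, 8449 were called at PD, 15 at LZ, 9190 from LZ to PD in WT, 7316 in Cnot4-null and 4770 in the interaction. A mean of at least 5 FPKM, which tests fewer genes, gave 5219 at PD. No filter gave 31 at LZ, and only the libraries compared gave 4 at LZ and 3955 from LZ to PD in Cnot4-null. Rescaling gave 7313 in the interaction. Of the 9 genes, 5 were called at PD with a pseudocount of 0.1, beside 8258 of all 15899. With a mean of at least 5 FPKM, 3 of the 9 were tested, and 3 were called from LZ to PD in WT and 0 in Cnot4-null, beside 6717 and 5179 of 9348. Quantile normalization and rescaling each called 5 from LZ to PD in Cnot4-null, beside 7960 and 8509 of all 15899.

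With 1 library left out, 4057 (without WT PD replicate 2) to 9956 genes were called at PD, with 4341 without WT PD replicate 1, and 3 to 5 of the 9, with 5 without Cnot4-null PD replicate 1. At LZ the range was 9 (without either WT PD library) to 25 (without WT LZ replicate 1), with 0 of the 9. From LZ to PD it was 6930 to 10156 and 4 to 5 of the 9 in WT, and 4644 (without Cnot4-null LZ replicate 1) to 8333 and 1 (without the same library) to 4 of the 9 in Cnot4-null, with 4828 without Cnot4-null LZ replicate 2. For the interaction it was 1656 (without WT PD replicate 2) to 7929 (without Cnot4-null PD replicate 1) and 1 to 5 of the 9, with 1777 without WT PD replicate 1, 2299 without Cnot4-null LZ replicate 2, 2710 without replicate 1 of that group, 2569 without WT LZ replicate 1 and 3151 without WT LZ replicate 2. The call was lost for Trp53 without WT LZ replicate 1, Cnot4-null LZ replicate 1 or either WT PD library, which left 1 of the 9, and 5 were called without Cnot4-null PD replicate 1.

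Libraries with the same replicate number were also fitted as a block, although the labels do not say what they share. The correlation of their deviations between groups ran from -0.0651 to 0.194. With the replicate block, 8298 genes and 3 of the 9 were called at PD, 16 and 0 at LZ, 9085 and 5 from LZ to PD in WT, 7128 and 4 in Cnot4-null, where the block added Bax (-1.03, adjusted p = 0.0300, range 0.0192 to 0.317), and 4355 and 2 in the interaction. What depth limits was not tested.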
